A study of Mus musculus with 8 samples.

Results

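The 9 genes Sox2, Sox9, Pax6, Nfia, Nfib, Id2, Id4, Hopx and Fabp7 were followed as the stem cell and astroglial genes of the adult ventricular-subventricular zone (V-SVZ). They were chosen by name, as genes known from neural stem cells (NSCs) and astrocytes, with earlier results of these data known, out of 32285 genes in the count matrices, and all 9 were measured. Single nuclei RNA sequencing had been performed on tdTomato-positive nuclei sorted from the V-SVZ of mice at postnatal day 90. The groups were 4 Tsc2 wt/wt mice (labelled Control, genotype Tsc2 wild) and 4 Tsc2 mut/mut mice (labelled TSC, genotype Tsc2 mutant/mutant), with 1 library per mouse. The mice belonged to a conditional Tsc2 line in which Cre recombinase removes part of the gene and a tdTomato reporter marks recombined cells. The study delivered Cre either from an electroporated plasmid or from a tamoxifen-inducible Nestin-CRE-ERT2 transgene, and which of these was used for the 8 mice, or the age at recombination, is not given in the sources used here. The sorted nuclei held glia, ependymal cells, choroid plexus and microglia, and whether each of these cells was recombined was not tested.

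Astrocyte-like NSCs line the lateral ventricles of the adult mouse and give rise to olfactory bulb neurons and to glia. They share most of their transcription factors with parenchymal astrocytes, so that these genes mark an astroglial lineage and not a stem cell state alone. Sox2 and Sox9 are SOX family DNA-binding proteins, the former required for stem cell maintenance and the latter for gliogenesis. Pax6 is a paired-box factor of radial glia and of a subset of olfactory bulb interneurons. Nfia and Nfib, nuclear factor I proteins, switch on astrocyte genes in development. Id2 and Id4 bind basic helix-loop-helix E proteins and keep them off DNA, and they are induced by BMP signalling. Hopx is a small homeodomain protein without DNA binding that marks quiescent stem cells, and Fabp7 is a fatty acid binding protein of radial glia and astrocytes.

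The deposited matrices held 60000 barcodes per library with 11182335 to 36773832 unique molecular identifiers (UMIs) in all. 37881 barcodes with at least 300 genes were kept, 1923 to 10153 per mouse, and they fell into groups of very different make-up. Barcodes with under 20% mitochondrial UMIs, called nucleus-like, numbered 3470 with median depths of 1760 to 4117 non-mitochondrial UMIs per mouse. Barcodes with 30% or more, called mitochondria-rich, numbered 33406 with median depths of 466.5 to 625. Barcodes with at least 100 and under 200 genes, called low-count, were taken as the level of free RNA. Whether they hold free RNA only was not tested. Levels are given as CPM (counts per 1000000 non-mitochondrial UMIs), summed per mouse, so that fewer cells of a type and less RNA per cell cannot be told apart. The library of Tsc2 mut/mut 4 stood apart, because 167 of its nucleus-like barcodes (83.9%) were gated as choroid plexus and 5 as NSC/astrocyte. Its level of the RNA Xist in nucleus-like barcodes was 99.1 CPM, against 1172 to 1939 CPM in the other mice. Nucleus-like barcodes of each mouse held 0 to 2 UMIs of Y-linked genes. The cause of the Xist difference was not tested. The Tsc2 level in kept barcodes was 19.3 to 22.3 CPM in Tsc2 wt/wt and 15.2 to 21.5 CPM in Tsc2 mut/mut, and since counting was over the whole gene this does not check the deletion. Of 37714 distinct barcode sequences, 166 occurred in more than 1 library.

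The members differ greatly in gene structure, and the difference in length recurs in the comparison of the barcode populations. On GRCm38, Nfia spans 346 kb of chromosome 4 (97772734 to 98118874, plus strand) and Nfib spans 416 kb of the same chromosome (82290173 to 82705750, minus strand), with 3.15% and 3.60% of the span exonic. At the other extreme, Sox2 is a single exon of 2.06 kb (chromosome 3, 34650405 to 34652461, plus strand) that lies inside the long non-coding gene Sox2ot on the same strand. Sox9 spans 5.54 kb (chromosome 11, 112782224 to 112787760), Id2 3.34 kb (chromosome 12, 25093799 to 25097140), Id4 4.80 kb (chromosome 13, 48261228 to 48266026) and Fabp7 3.57 kb (chromosome 10, 57784881 to 57788450). Pax6 spans 28.5 kb (chromosome 2, 105668900 to 105697364) and Hopx 28.1 kb (chromosome 5, 77086988 to 77115121). Antisense genes overlap Pax6, Id4, Hopx and Nfib, and a coding gene on the opposite strand overlaps the start of Nfia. The gene Gm11267 lies inside Nfib on the same strand. The strand setting of the counting is not given in the sources used here, and the part of overlapping genes in the member counts was not tested.

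The promoters of the paralogs Id2 and Id4 are shown because these genes went opposite ways in ependymal-gated barcodes, as described further on. Each line holds the 250 bases before a RefSeq start site on GRCm38.p6, 5′ to 3′ on the strand of the gene, with CCAAT or its complement ATTGG in capitals.
Id2 (chr12:25096093-25096342, minus strand): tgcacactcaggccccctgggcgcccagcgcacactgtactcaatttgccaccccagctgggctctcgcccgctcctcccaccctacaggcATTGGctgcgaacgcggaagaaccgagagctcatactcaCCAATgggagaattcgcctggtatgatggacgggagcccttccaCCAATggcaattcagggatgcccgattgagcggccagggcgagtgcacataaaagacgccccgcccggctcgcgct
Id4 (chr13:48260866-48261115, plus strand): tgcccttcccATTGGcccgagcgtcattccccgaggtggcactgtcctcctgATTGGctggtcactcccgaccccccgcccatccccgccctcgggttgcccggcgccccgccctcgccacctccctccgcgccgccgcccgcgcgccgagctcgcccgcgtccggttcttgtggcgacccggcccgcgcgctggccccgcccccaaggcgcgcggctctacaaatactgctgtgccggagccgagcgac
The motif CCAAT, searched on both strands, occurred 3 times in the Id2 window and 2 times in the Id4 window. It was found in 33.8% of 32851 promoter windows of this length, and in 10.1% more than once. The palindrome GGCGCC was present in both windows and in 9.59% of all windows, and the E-box CAGCTG was present in Id2 and in 13.0% of all windows. The motif TATAAA was in neither window and in 12.4% of all windows. Of the 9 members, 7 had at least 1 window in the table, and each of these 7 genes had CCAAT in at least 1 window.

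Which members had higher levels in nucleus-like barcodes, and which in mitochondria-rich barcodes, was asked first. Fabp7, Hopx, Id2, Id4 and Sox2 had lower levels in nucleus-like than in mitochondria-rich barcodes of all 8 mice, and Nfia and Nfib had higher levels in 7 of 8. The comparison was made within each mouse, with edgeR over all genes. By this test all 9 members were called, 7 lower and 2 higher, where 78.9% of the 10942 genes tested were called, 39.4% lower and 39.5% higher, so that being called was not particular to the members. The median log2 fold change was -1.55 over the members and -0.03 over all genes. Absence of overlap between barcode populations or gates, given below for members, was not counted over all genes. Mean CPM of the members in mitochondria-rich barcodes was 0.98 (Nfia) to 1.22 (Sox9) times that in low-count barcodes. Only Sox9 and Id2 were above the low-count level in all 8 mice. The comparison thus sets nucleus-like barcodes against levels close to those of low-count barcodes.

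Fabp7 had the largest difference. In nucleus-like barcodes its level was 8.88, 36.9, 26.4 and 13.3 CPM in Tsc2 wt/wt mice 1 to 4 and 34.2, 23.6, 44.2 and 29.3 CPM in Tsc2 mut/mut mice 1 to 4. In mitochondria-rich barcodes it was 289, 360, 311 and 254 CPM and 325, 307, 332 and 419 CPM in the same order. The populations did not overlap, and every mouse was lower in the nucleus-like barcodes. The log2 fold change of Fabp7 was -4.26 (SE 0.29, adjusted p = 1.05e-07). The level in low-count barcodes, 326 ± 49.7 CPM (SD, n = 8), was close to the 324 ± 49.1 CPM of mitochondria-rich barcodes. Fabp7 in nucleus-like barcodes was therefore well below its low-count level.

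Hopx followed the same order. Its level in nucleus-like barcodes was 107, 57.2, 87.0 and 73.8 CPM in Tsc2 wt/wt mice 1 to 4 and 54.9, 94.2, 67.5 and 171 CPM in Tsc2 mut/mut mice 1 to 4. In mitochondria-rich barcodes it was 294, 322, 636 and 305 CPM and 345, 367, 218 and 325 CPM. The highest nucleus-like value, from Tsc2 mut/mut 4, stayed below the lowest mitochondria-rich value. Hopx had a log2 fold change of -2.60 (SE 0.31, adjusted p = 6.54e-06). Tsc2 wt/wt 3 stood above the other mice in mitochondria-rich barcodes, and it was also highest in low-count barcodes, at 582 CPM against 186 to 333 CPM.

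The ID genes moved together here. Id2 was 114, 80.9, 124 and 75.4 CPM in nucleus-like barcodes of Tsc2 wt/wt mice and 54.4, 76.5, 74.5 and 145 CPM in those of Tsc2 mut/mut mice, against 160 to 234 CPM (median 215) in mitochondria-rich barcodes. Id4 was 58.9 to 85.5 CPM (median 68.4) in nucleus-like and 139 to 206 CPM (median 163) in mitochondria-rich barcodes. Neither pair of populations overlapped. The log2 fold changes were -1.80 for Id2 (SE 0.24, adjusted p = 1.53e-05) and -1.87 for Id4 (SE 0.18, adjusted p = 1.01e-06). Their relative Id1 went the other way, with a log2 fold change of 1.83 (adjusted p = 0.00013), and Id3 was not called.

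Sox2 was 40.6 to 106 CPM (median 57.2) in nucleus-like and 91.1 to 129 CPM (median 116) in mitochondria-rich barcodes. These ranges overlapped only through Tsc2 wt/wt 3, which had 106 CPM in nucleus-like barcodes, and each mouse taken by itself was lower there. The log2 fold change of Sox2 was -1.55 (SE 0.17, adjusted p = 2.51e-06). Sox9 and Pax6 had levels that overlapped between the populations. Sox9 was 63.1 to 198 CPM in nucleus-like and 113 to 157 CPM in mitochondria-rich barcodes, and Pax6 was 4.51 to 57.5 CPM and 30.3 to 44.0 CPM. Both were called lower, with log2 fold changes of -0.93 for Sox9 (SE 0.25, adjusted p = 0.00454) and -0.82 for Pax6 (SE 0.27, adjusted p = 0.0146), although either gene had the higher CPM in 3 of 8 mice. These calls depended on the setting. With library size as the only scaling, which moved the median of all genes to 0.56, the values were -0.34 for Sox9 (adjusted p = 0.184) and -0.22 for Pax6 (adjusted p = 0.535), and the share of calls that were higher rose from 50.1% to 64.8%. Pax6 was also not called at 500 genes per barcode (-0.43, adjusted p = 0.0924) or with a mitochondrial share under 10% (-0.55, adjusted p = 0.0785). 

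Nfia and Nfib were the members that rose. Nfia was 1389, 1781, 2146 and 1531 CPM in nucleus-like barcodes of Tsc2 wt/wt mice 1 to 4 and 1877, 1171, 1426 and 261 CPM in those of Tsc2 mut/mut mice 1 to 4. In mitochondria-rich barcodes Nfia was 299 to 426 CPM (median 348), about the 315 to 408 CPM of low-count barcodes. The exception was Tsc2 mut/mut 4, the library made up mostly of choroid plexus-gated barcodes. Nfib was 597, 914, 909 and 799 CPM and 946, 595, 740.3 and 129.6 CPM in nucleus-like barcodes, against 190 to 265 CPM in mitochondria-rich barcodes. The log2 fold changes were 1.29 for Nfia (SE 0.31, adjusted p = 0.00176) and 0.90 for Nfib (SE 0.27, adjusted p = 0.00859). Without a filter on low counts Nfib was 0.62 (adjusted p = 0.0873). The other NFI genes went down, Nfix by -1.48 and Nfic by -1.62 on the log2 scale.

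**Figure D1:**
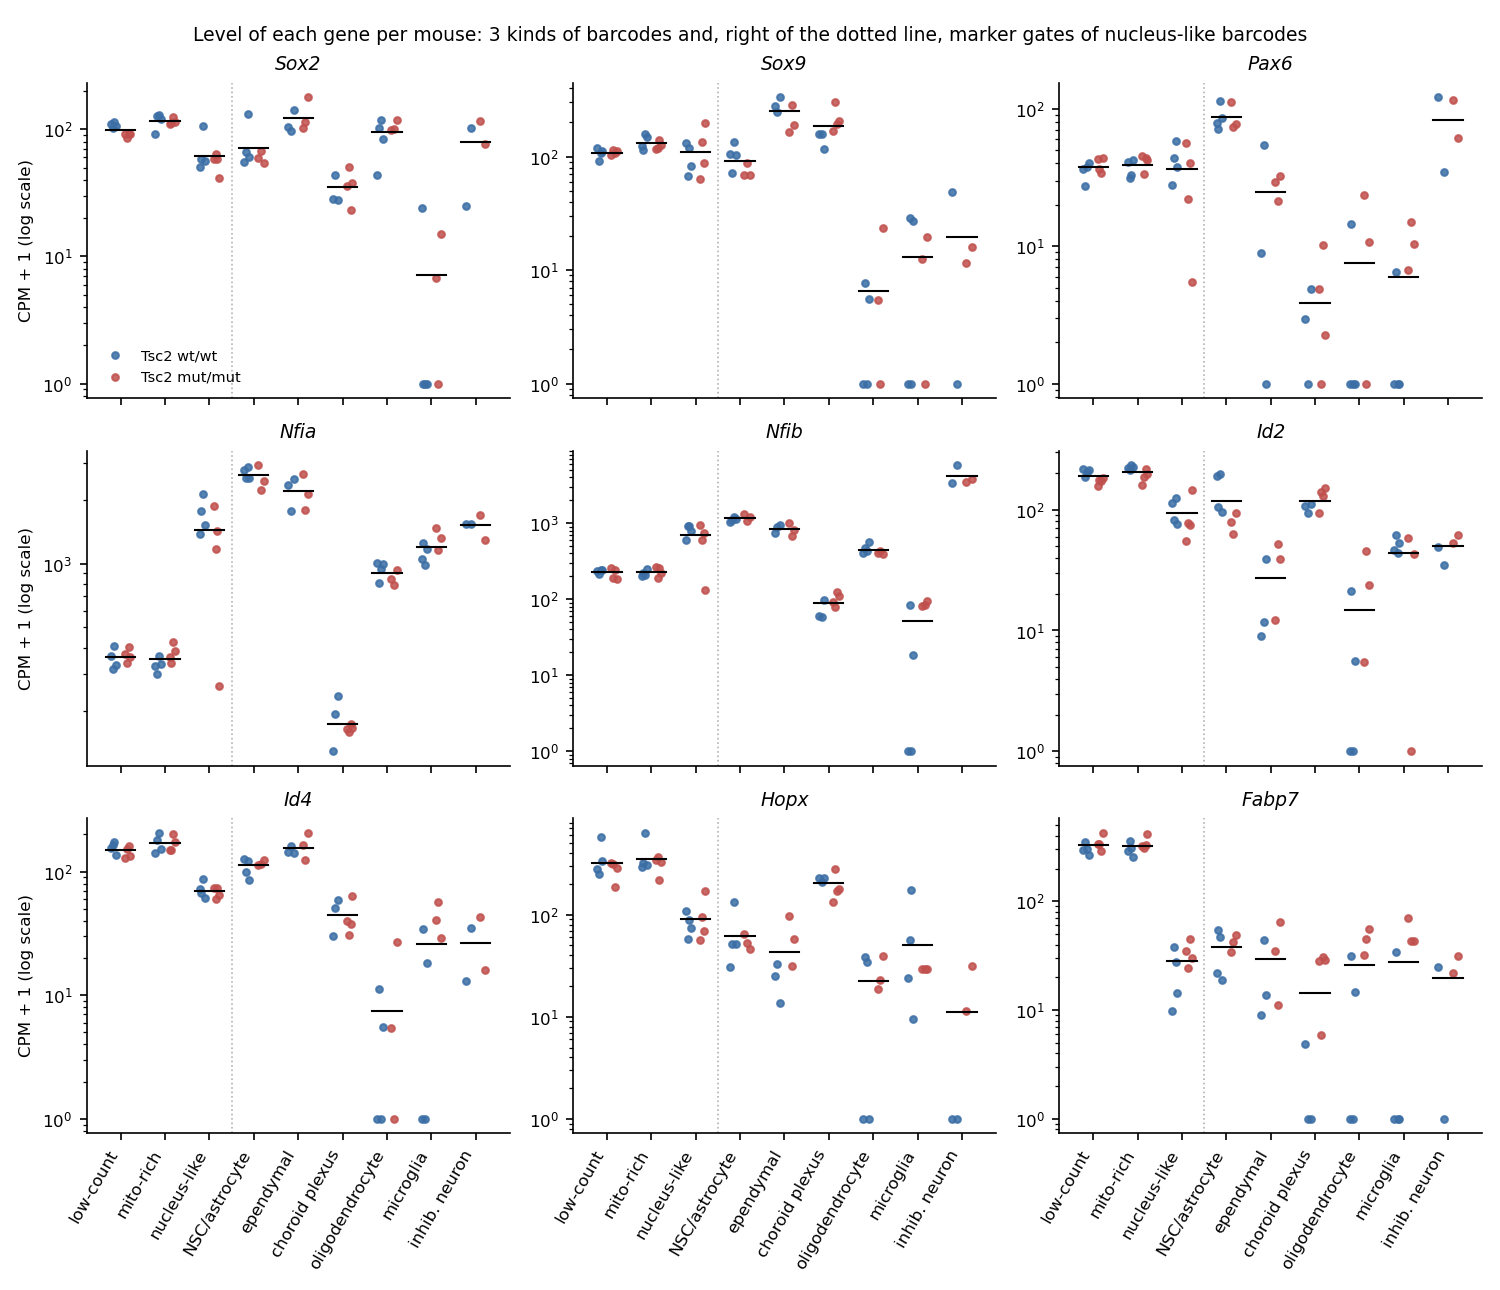
Level of each of the 9 genes in low-count, mitochondria-rich and nucleus-like barcodes and, right of the dotted line, in the marker gates of nucleus-like barcodes, as CPM + 1 on a log scale, with 1 point per mouse coloured by genotype and bars at the means. Fabp7, Hopx, Id2 and Id4 sit lower in nucleus-like barcodes, whereas Nfia and Nfib sit higher in all mice but Tsc2 mut/mut 4.

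The members that rose are the longest of the 9, and gene length went with the fold change over all genes. Of the genes tested, 9.30% of those spanning under 10 kb were called higher in nucleus-like barcodes, against 31.9% from 10 to 50 kb, 60.3% from 50 to 100 kb and 74.0% at 100 kb or more. The median log2 fold changes in these bins were -1.39, -0.22, 0.87 and 1.65. Sox2, Sox9, Id2, Id4 and Fabp7 belong to the shortest bin, Pax6 and Hopx to the next, and Nfia and Nfib to the longest. Sox2, Sox9, Id2, Id4 and Nfia lay within 0.5 of the medians of their bins, Sox9 above and the others below. Fabp7, Hopx, Pax6 and Nfib lay further below the medians of theirs. The part of gene length in these values was not tested.

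**Figure D2:**
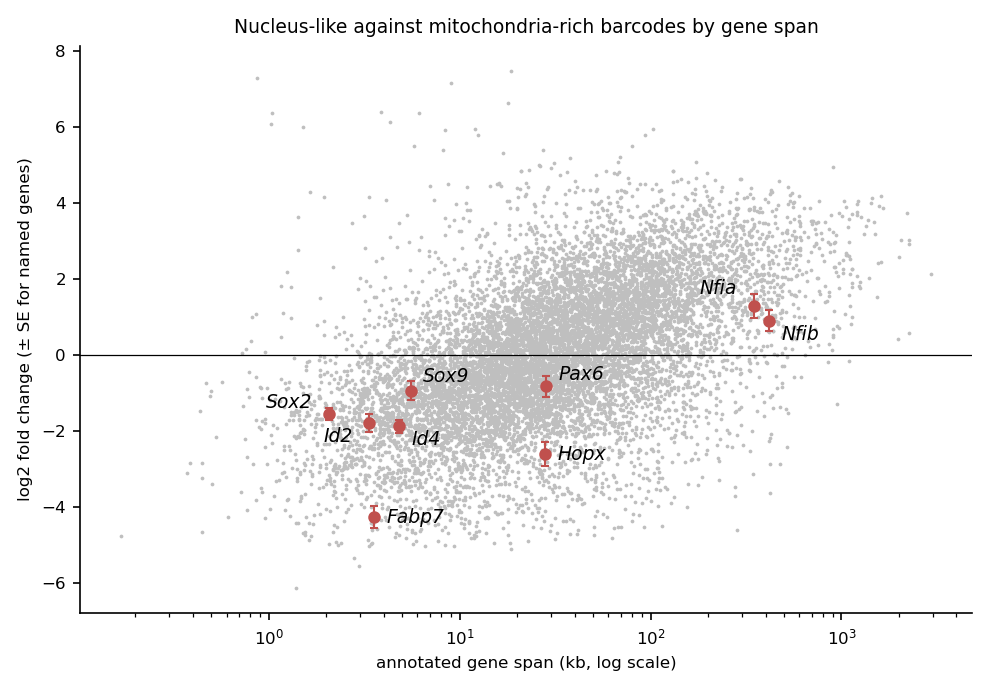
Log2 fold change between nucleus-like and mitochondria-rich barcodes (vertical axis) against the span of the gene in kb (horizontal log axis), 1 point per gene tested, with the 9 members named and their standard errors drawn. Members under 10 kb lie below 0, and Nfia at 346 kb and Nfib at 416 kb lie above it.

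Among the lists of related genes, 8 of 22 tested other stem cell and glial transcription factors were higher and 9 were lower in nucleus-like barcodes, with a median of -0.18. Of all genes tested, 39.5% were higher and 39.4% lower. Lhx2 (-3.13), Hey1 (-2.63), Nr2f1 (-2.59) and Olig1 (-2.99) had the lowest p. Of 10 SOX relatives, 3 were higher and 5 lower, the latter led by Sox21 (-2.39), Sox11 (-2.18) and Sox1 (-1.65). Of 11 genes of the BMP pathway, which induces ID genes, 6 were higher and 1 lower, with Bmp6 at 3.61 and the inhibitory Smad6 at 3.50 and Smad7 at 1.09. Of 3 E proteins, the partners of ID proteins, Tcf12 was higher (2.92). The epidermal fatty acid binding protein gene Fabp5 was lower by a log2 fold change of -4.25, close to that of Fabp7.

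Cell types were assigned to single barcodes by gates on 154 marker genes of 11 classes, none of which is a member. A barcode was gated when at least 3 markers of a class were raised over the low-count barcodes of its own library. The number also had to be at least 2 times that of the next class. Of 3470 nucleus-like barcodes, 970 (28.0%) were gated as NSC/astrocyte, 547 as oligodendrocyte, 527 as microglia, 451 as choroid plexus, 279 as ependymal, 126 as inhibitory neuron or neuroblast, 71 as endothelial and 65 as oligodendrocyte progenitor, while 248 were mixed and 178 had no gate. The NSC/astrocyte gate is a range cut from a marker count and does not separate stem cells from astrocytes. Its barcodes had a median of 5 to 7 raised markers per mouse, with at most 2 for the next class. In 7 mice it held at least 10 barcodes, and Tsc2 mut/mut 4, with 5, was left out of the fits.

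Pax6, Nfia, Id4 and Nfib had higher levels in the NSC/astrocyte gate than outside it, without overlap between the mice. Compared with all barcodes of other gates in the same mouse, 6 of 9 members were higher, where 28.8% of 8356 genes tested were higher, 35% were lower and 63.8% were called in all. The median log2 fold change was 0.96 over the members and -0.04 over all genes. Sox2, Sox9 and Hopx were not called.

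Pax6 had the largest difference. It was 78.0, 70.2, 114 and 84.1 CPM in the NSC/astrocyte gate of Tsc2 wt/wt mice 1 to 4 and 111, 72.2 and 76.3 CPM in that of Tsc2 mut/mut mice 1 to 3. In the other gates it was 6.03, 21.8, 0 and 2.86 CPM and 22.8, 5.32 and 14.1 CPM. The groups did not overlap, and the log2 fold change was 2.91 (SE 0.32, adjusted p = 8.31e-07). The NSC/astrocyte gate was also above the low-count level of 36.4 ± 5.33 CPM (SD, n = 8) in all 7 mice. Pax6 was 82.4 ± 42.2 CPM (SD, n = 4 mice) in the inhibitory neuron or neuroblast gate, and the remaining classes had means of 23.6 CPM or less.

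Nfia was 2250 to 2943 CPM (median 2566) in the NSC/astrocyte gate and 685 to 1469 CPM (median 831) in the other gates, and Nfib was 1047 to 1315 CPM (median 1125) and 360 to 706 CPM (median 557). Neither gene overlapped. The log2 fold changes were 1.55 for Nfia (SE 0.21, adjusted p = 1.1e-05) and 1.19 for Nfib (SE 0.19, adjusted p = 5.86e-05). Id4 was 84.1 to 126 CPM in the gate and 34.8 to 48.7 CPM outside it, with a log2 fold change of 1.41 (SE 0.16, adjusted p = 1.32e-06). Although separated between gates, Id4 stayed below its low-count level of 128 to 174 CPM.

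Id2 was 189, 104, 195 and 94.1 CPM in the NSC/astrocyte gate of Tsc2 wt/wt mice and 78.2, 61.9 and 93.1 CPM in that of Tsc2 mut/mut mice 1 to 3, against 40.6 to 77.2 CPM in the other gates. The ranges met through Tsc2 mut/mut 2. The mean of Id2 in the gate, 116 CPM, was below its mean low-count level of 188 CPM. The log2 fold change of Id2 was 0.96 (SE 0.22, adjusted p = 0.00135), and with a stricter gate it was 0.46 (adjusted p = 0.216). Fabp7 was 18.0 to 53.2 CPM in the gate and 3.62 to 42.3 CPM outside it, with a log2 fold change of 0.96 (SE 0.30, adjusted p = 0.00968), and all of these levels were below the low-count level of 267 to 427 CPM. 

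The 3 members that were not called had levels that overlapped. Sox2 was 53.7 to 130 CPM in the NSC/astrocyte gate and 39.8 to 81.2 CPM in the others (log2 fold change 0.27, SE 0.17, adjusted p = 0.173). Sox9 was 67.6 to 133 CPM and 64.2 to 160 CPM (-0.11, SE 0.19, adjusted p = 0.643). Hopx was 30 to 133 CPM and 40.6 to 146 CPM (-0.45, SE 0.32, adjusted p = 0.225). Hopx was called in 2 of 18 alternatives, among them the fit without Tsc2 wt/wt 3 (-0.68, adjusted p = 0.0335). Sox2 was called in 1 of 19 alternatives (adjusted p = 0.0157), and Sox9 in 0 of 19. The other gates are a mixture, and they include the ependymal and choroid plexus gates in which Sox9 was high.

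**Figure D3:**
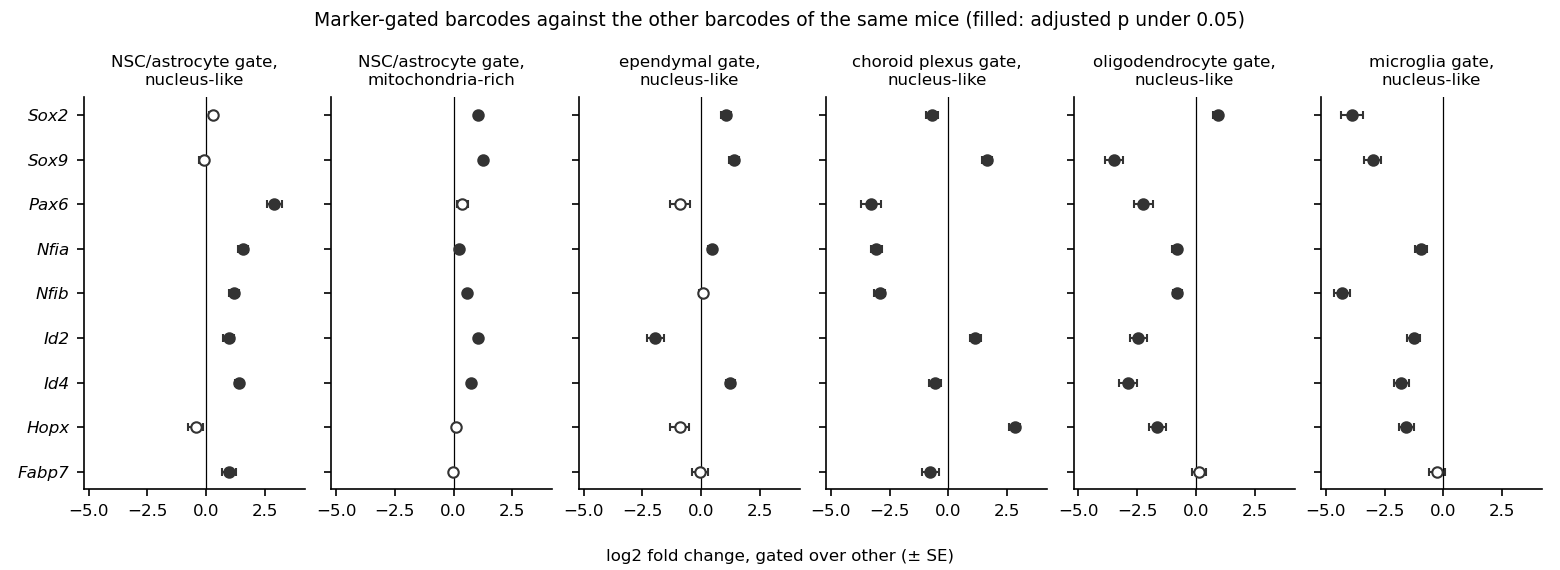
Log2 fold change of each member in marker gates of nucleus-like barcodes, each against all other gates of the same mice, and in the NSC/astrocyte gate of mitochondria-rich barcodes against the rest of these, with standard errors and with filled points for an adjusted p under 0.05. Of the gates drawn, Pax6 is highest in the nucleus-like NSC/astrocyte gate and Hopx in the choroid plexus gate, and Sox9 and Id4 are above 0 in the ependymal gate. The inhibitory neuron or neuroblast gate, where Pax6 was at a similar level, is not drawn.

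Shares of barcodes with a UMI gave a further view of the gate. After each barcode was thinned to 1000 UMIs, for which 900 of 970 were deep enough, Nfia was detected in 90.9 ± 1.97% (SD, n = 7 mice) of NSC/astrocyte-gated nucleus-like barcodes and Nfib in 64.1 ± 3.98%. Microglia do not arise from neural stem cells and are given beside them. Among 393 of 527 microglia-gated barcodes, Nfia was detected in 55.6% and Nfib in 4.02% (means over 6 mice), so that microglia are no background for Nfia, which was also above its low-count level there. Pax6 was detected in 8.50% against 0.907%, Sox9 in 8.36% against 1.07% and Sox2 in 5.40% against 0.142%. Id4 was detected in 10.2% against 3.46% and Id2 in 9.56% against 4.69%. Fabp7, at 3.12% against 2.61%, was close to its share in microglia. Hopx was at 5.84% against 1.79%. At this depth most NSC/astrocyte-gated barcodes had no UMI of 7 of the 9 members, which does not show that the genes were off.

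Ependymal cells, the ciliated lining of the ventricle, descend from the same radial glia as NSCs. In the ependymal gate of 6 mice, 5 of 9 members were called, where 53.1% of genes tested were called, 25.5% higher and 27.6% lower. Sox9, Id4, Sox2 and Nfia were higher and Id2 was lower. Sox9 was 279, 246 and 332 CPM in Tsc2 wt/wt mice 1 to 3 and 163, 286 and 190 CPM in Tsc2 mut/mut mice 1 to 3, against 57.5 to 120 CPM in the other gates. The groups did not overlap (log2 fold change 1.40, SE 0.20, adjusted p = 3.53e-05). Id4 was 123 to 203 CPM against 53.1 to 79.9 CPM (1.25, SE 0.20, adjusted p = 9.54e-05), and its paralog Id2 was 7.98 to 51.1 CPM against 63.0 to 141 CPM (-1.94, SE 0.38, adjusted p = 0.000507). The ID pair of which the promoters are printed thus separated in opposite directions, without overlap for either gene. The Id2 level in the ependymal gate rests on 18 UMIs and that of Id4 on 126. Sox2 was 104, 96.4 and 141 CPM and 101, 112 and 177 CPM in the same mice, against 36.6 to 103 CPM (1.06, SE 0.23, adjusted p = 0.00115), and these ranges overlapped. The mean low-count levels of Id4 (150 CPM) and Sox2 (98.1 CPM) lay within their ependymal ranges, and that of Sox9 (107 CPM) lay below its range. The relatives Id1 (-2.76) and Id3 (-2.33) were lower, like Id2.

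The Nfia call in the ependymal gate (0.46, SE 0.17, adjusted p = 0.0338) was lost in 7 of 19 alternatives, among them the fits without Tsc2 wt/wt 1 (adjusted p = 0.0551) and without Tsc2 mut/mut 1 (adjusted p = 0.106), 2 (adjusted p = 0.0965) or 3 (adjusted p = 0.0882). Nfib (0.08), Fabp7 (-0.05), Hopx (-0.92, adjusted p = 0.0756) and Pax6 (-0.89, adjusted p = 0.0965) were not called. Hopx was called in 6 of 18 alternatives, among them the fit without Tsc2 mut/mut 1 (-1.56, adjusted p = 0.00544). Nfib was called in 1 of 19 and Pax6 in 1 of 13 alternatives. Of 11 SOX relatives, 8 were not tested in this gate. The 3 that were tested, Sox6 (1.72), Sox5 (0.84) and Sox4 (1.09), were all higher, where 25.5% of all genes tested were higher.

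The choroid plexus, the epithelium that secretes cerebrospinal fluid, differed most from the other gates. All 9 members were called in 7 mice, but so were 86.5% of genes tested, 32.8% higher and 53.7% lower, and the median of all genes was -0.84. Hopx was 227, 208 and 227 CPM in Tsc2 wt/wt mice 1, 2 and 4 and 132, 277, 171 and 179 CPM in Tsc2 mut/mut mice 1 to 4. Outside the gate Hopx was 21.2 to 48.6 CPM (log2 fold change 2.82, SE 0.23, adjusted p = 9.53e-18). Sox9 was 115 to 302 CPM against 53.4 to 108 CPM (1.65, SE 0.21, adjusted p = 2.36e-10), and Id2 was 93.1 to 150 CPM against 42.3 to 111 CPM (1.14, SE 0.22, adjusted p = 4.5e-06). Pooled over mice, Hopx was 194 CPM and Id2 125 CPM in this gate, below their mean low-count levels of 319 and 188 CPM. Sox9, at 187 CPM pooled, was above its mean low-count level of 107 CPM. Id1 (2.54) and Id3 (2.46) were higher as well.

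Pax6 (-3.31), Nfia (-3.07) and Nfib (-2.93) were lower in the choroid plexus gate by more than the median gene. Nfia was 128 to 234 CPM there against 1491 to 2208 CPM in the other gates. Pax6 was 0 to 9.27 CPM, on 9 UMIs in all, against 30.6 to 66.4 CPM. The lower calls of Fabp7 (-0.77, adjusted p = 0.0362), Sox2 (-0.72, adjusted p = 0.00788) and Id4 (-0.58, adjusted p = 0.0253) were no larger than the median of all genes. With single mice left out, 6 to 7 members were called in each of 7 fits, and the calls of Sox2 and Id4 were lost in all 7 and that of Fabp7 in 6. Without Tsc2 mut/mut 4, Fabp7 was -0.58 (adjusted p = 0.17), Sox2 -0.34 (adjusted p = 0.232) and Id4 -0.33 (adjusted p = 0.24). None of these 3 values was below that of the median gene. The E proteins Tcf4 (-3.85), Tcf12 (-3.73) and Tcf3 (-1.37) were all lower in this gate.

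In oligodendrocytes, the myelinating cells, Sox2 was higher and 7 members were lower. In 7 mice 8 of 9 members were called, 1 higher and 7 lower, where 56.4% of genes were called, 24.7% higher and 31.7% lower. Sox2 was 43.0 to 116 CPM (median 99.5) in the oligodendrocyte gate against 43.9 to 107 CPM (median 51.0) in the others (0.92, SE 0.21, adjusted p = 0.000665), and with a stricter gate it was 0.48 (adjusted p = 0.171). The median of 99.5 CPM was close to the mean low-count level of Sox2, 98.1 CPM. Sox2ot, the gene that contains Sox2, was 1567 CPM in this gate on average and 247 CPM in the NSC/astrocyte gate, and its part in the Sox2 value was not tested. Sox9 was 0 to 22.6 CPM, on 11 UMIs, against 80.1 to 160 CPM (-3.48, SE 0.38, adjusted p = 9.2e-08). Id4 (-2.90), Id2 (-2.44), Pax6 (-2.23) and Hopx (-1.64) were also lower. The NFI genes fell less, Nfia to 796 to 1004 CPM (-0.81, adjusted p = 0.000989) and Nfib to 394 to 572 CPM (-0.80, adjusted p = 0.00102). Fabp7 was not called (0.13, adjusted p = 0.738).

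Microglia, immune cells that do not arise from neural stem cells, had low levels of most members. Pax6 was too low to be tested there, and 7 of 8 tested members were lower, where 43.8% of genes were lower, 21.2% were higher and 65% were called in all, and the median of all genes was -0.43. Nfib was 0 to 93.6 CPM against 579 to 1029.7 CPM (-4.31, SE 0.34, adjusted p = 1.11e-12). Sox2 was 0 to 22.9 CPM, on 5 UMIs, against 44.7 to 113 CPM (-3.87, SE 0.47, adjusted p = 1.05e-08). Sox9 (-3.01), Id4 (-1.79), Hopx (-1.58) and Id2 (-1.26) were lower, too. Nfia had 987 to 1485 CPM in this gate, and its value (-0.94, adjusted p = 0.00203) was -0.40 with library size as the only scaling (adjusted p = 0.148), under which the median of all genes was 0.08 and the share of calls that were higher 53.0% instead of 32.6%. Fabp7 was not called (-0.29, adjusted p = 0.464).

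In gates with at least 10 barcodes in 4 mice or fewer, no fit was made and levels are given as a description. Nfib was highest of all classes in the inhibitory neuron or neuroblast gate, with 3414 CPM in Tsc2 wt/wt 2, 5837 CPM in Tsc2 wt/wt 4, 3536 CPM in Tsc2 mut/mut 1 and 3781 CPM in Tsc2 mut/mut 3. No NSC/astrocyte value of Nfib reached this range. Endothelial-gated barcodes of 4 mice held Nfia at 903 ± 312 CPM and Nfib at 949.7 ± 381 CPM (SD), with no more than 22 UMIs of any other member. Ordered by mean level, Sox2 ran from the ependymal gate (122 ± 31.4 CPM, n = 6 mice) through the oligodendrocyte (93.9 ± 25.3, n = 7), inhibitory neuron or neuroblast (79.0 ± 40.1, n = 4), NSC/astrocyte (69.8 ± 27.0, n = 7), oligodendrocyte progenitor (37.2 ± 3.35, n = 2) and choroid plexus (34.3 ± 9.68, n = 7) to the microglia gate (6.09 ± 9.06, n = 7). The neighbours from ependymal to NSC/astrocyte differed by less than the larger of their SDs, as did oligodendrocyte progenitor and choroid plexus. The endothelial gate held 1 UMI of Sox2 in all, or 2.99 CPM pooled over mice, against 5.96 CPM pooled in microglia on 5 UMIs. Sox9 ran from ependymal (249 ± 63.3 CPM) and choroid plexus (186 ± 59.0) to NSC/astrocyte (90.7 ± 24.4) and to 18.4 CPM or less in the remaining classes.

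Over the 8 gated classes, the genes with the pattern most like a member were found among 7551 genes that are in no gate. The measure was Pearson's r of log2(CPM + 1), over 8 points that share libraries and depth, so that high values are common. For Pax6 the nearest were Gm20646 (r = 0.942), Egfr (0.933), which encodes the EGF receptor, and Pantr1 (0.926). For Sox9 they were Bphl (0.964), Ezr (0.962) and Zfp938 (0.957), and for Sox2 Fhl1 (0.966), Ptprf (0.951) and Zfhx4 (0.948). Nfia was nearest to Zfp945 (0.983), Crtc3 (0.982) and Nars2 (0.972), and Nfib to Zfp251 (0.930), Asap2 (0.921) and 2700054A10Rik (0.921). Id4 was nearest to Map3k19 (0.963), Acss3 (0.961) and Intu (0.947), whereas Id2 had no gene above 0.882 (Pdha1). Hopx was nearest to Smim4 (0.975), Acad8 (0.965) and Apoe (0.952), and Fabp7 to Tmem184c (0.940), Mapk9 (0.921) and Stmn3 (0.917).

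Of the 25 other stem cell and glial transcription factors, 19 were tested in the NSC/astrocyte gate and 6 were not. Of those tested, 17 were higher and 2 lower, with a median of 2.69, where 28.8% of all genes tested were higher and 35% lower. A gene could pass the filter on low counts through its level in the gate alone, so that the count and the median are no test of the list. Gli2 (4.58) and Gli3 (4.76), effectors of Hedgehog signalling, and the homeobox gene Dbx2 (5.09) were among the higher, and the immediate early gene Egr1 (-4.80) was lower. Of 6 SOX relatives, Sox5 (2.01), Sox6 (1.43) and Sox13 (0.86) were higher and Sox4 (-2.54) was lower. The ID relatives went against the members, Id1 by -2.69 and Id3 by -0.98. Of 10 BMP pathway genes tested, the receptor gene Bmpr1a was higher (1.54), and Smad7 (-3.26) and Bmp6 (-0.78) were lower.

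Mitochondria-rich barcodes could be gated as well, although 92.1% of them had no gate. The NSC/astrocyte gate held 1790 (5.36%), with a median of 3 to 4 raised markers and median depths of 493 to 802.5 UMIs per mouse. Sox9, Sox2 and Id2 were 2.40, 2.07 and 2.03 times as high in it as in the other mitochondria-rich barcodes. In all, 6 of 9 members were higher, where 17.1% of genes tested were higher, 16.4% were lower and 33.4% were called in all. Sox9 was 188, 232, 397 and 399 CPM in Tsc2 wt/wt mice 1 to 4 and 306, 331, 264 and 271 CPM in Tsc2 mut/mut mice 1 to 4, against 105 to 132 CPM in the rest. Sox2 was 271, 262, 280 and 275 CPM and 238, 218, 169 and 193 CPM, against 74.2 to 122 CPM. Id2 was 344.5, 439.8, 527 and 554 CPM and 357, 375, 329.8 and 328 CPM, against 149.8 to 211 CPM. None of these overlapped. The log2 fold changes were 1.26 for Sox9 (SE 0.10, adjusted p = 1.73e-33), 1.05 for Sox2 (SE 0.11, adjusted p = 6.85e-20) and 1.02 for Id2 (SE 0.09, adjusted p = 3.18e-30).

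Id4 (0.73, SE 0.10, adjusted p = 1.53e-12) and Nfib (0.58, SE 0.09, adjusted p = 1.19e-09) were higher in the mitochondria-rich NSC/astrocyte gate of all 8 mice. Nfia (0.24, SE 0.08, adjusted p = 0.00918) was called in 13 of 18 alternatives, and not without Tsc2 mut/mut 2 (0.18, adjusted p = 0.0743). Pax6 (0.38, adjusted p = 0.17), Hopx (0.09, adjusted p = 0.451) and Fabp7 (-0.01, adjusted p = 0.944) were not called. Hopx was higher in 6 and Fabp7 in 7 of 8 mice, with levels of 293 to 709 CPM and 255 to 435 CPM that were about those of low-count barcodes. With library size as the only scaling, the share of calls that were higher was 61.8% instead of 51.1%. Among 25 other stem cell and glial factors, 7 were not tested. Of the 18 tested, 12 were higher and 1 was lower, where 17.1% of all genes tested were higher and 16.4% lower. Zbtb20 (0.45), Lhx2 (0.55), Npas3 (0.67) and Hes5 (0.92) had the lowest p.

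The contrast between the populations was present within the NSC/astrocyte gate of 7 mice. There, 8 of 9 members were called, where 90.2% of genes were called, 49.2% higher and 40.9% lower, and the median of all genes was 0.39. Nfia (2.36, SE 0.16) and Nfib (1.56, SE 0.16) were higher in nucleus-like barcodes, and Fabp7 (-3.36, SE 0.18), Hopx (-2.93, SE 0.17), Id2 (-2.14, SE 0.16), Sox2 (-2.08, SE 0.17), Sox9 (-2.01, SE 0.17) and Id4 (-1.62, SE 0.16) were lower. None of the 8 overlapped between the populations, a count that was not made over all genes. Pax6 was not called (0.39, SE 0.23, adjusted p = 0.101), but it was called in 6 of 17 alternatives. Among these were the fit without Tsc2 mut/mut 2 (0.72, adjusted p = 0.00392) and that with library size as the only scaling (0.63, adjusted p = 0.00709). Sox9, which overlapped between the populations as a whole, was separated once barcodes of a single gate were compared. The share of genes that were higher ran from 3.67% under 10 kb to 86.6% at 100 kb or more, so that the order by gene length held within the gate.

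Whether these genes differed between the genotypes was tested over mice, in 5 populations of barcodes. No member was called in any of them. The share of barcodes that had lost Tsc2 was not determined. The genes called were 2 of 12916 in all kept barcodes (0.0155%), 32 of 10097 in mitochondria-rich barcodes (0.317%), 25 of 2142 in NSC/astrocyte-gated mitochondria-rich barcodes (1.17%, Pax6 not tested), and 0 of 11048 in nucleus-like and 0 of 6696 in NSC/astrocyte-gated nucleus-like barcodes (0%). At an unadjusted p under 0.05, 168 genes in nucleus-like and 473 genes in NSC/astrocyte-gated nucleus-like barcodes passed, and DESeq2 called 1 and 6. None of the lists of related genes had a called gene in any population.

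Id2 had the smallest p of the members. In the NSC/astrocyte gate it was 94.1 to 195 CPM in 4 Tsc2 wt/wt mice and 61.9 to 93.1 CPM in 3 Tsc2 mut/mut mice, which did not overlap. The log2 fold change was -0.82 (SE 0.27, unadjusted p = 0.0067, edgeR adjusted p = 0.502), and over the alternatives it ran from -1.54 to -0.61 (adjusted p 0.0501 to 0.885). Of 7172 genes with enough UMIs, 8.07% did not overlap in this gate, and Id2 was the 1 member that did not. In NSC/astrocyte-gated mitochondria-rich barcodes Id2 was 344.5 to 554 CPM and 328 to 375 CPM (-0.44, SE 0.16, unadjusted p = 0.00801, adjusted p = 0.185). In mitochondria-rich barcodes as a whole it was 212 to 234 CPM and 160 to 218 CPM (-0.23, SE 0.10, unadjusted p = 0.034, adjusted p = 0.325). In low-count barcodes Id2 was 186 to 215 CPM in Tsc2 wt/wt and 157 to 184 CPM in Tsc2 mut/mut, so that the low-count barcodes differed in the same direction. The part of free RNA in the Id2 values was not tested.

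Sox2 gave a similar set of values. In NSC/astrocyte-gated mitochondria-rich barcodes it was 262 to 280 CPM in Tsc2 wt/wt and 169 to 238 CPM in Tsc2 mut/mut, which did not overlap, where 6.01% of 2462 genes did not (-0.42, SE 0.20, unadjusted p = 0.0362, adjusted p = 0.354). In low-count barcodes Sox2 was 102 to 112 CPM and 83.7 to 91.2 CPM. Of the 9 members, 2 (Sox2 and Id2) did not overlap between the genotypes in low-count barcodes, where 5.82% of 12146 genes did not, and both were lower in Tsc2 mut/mut, as were 3.94% of genes. In the NSC/astrocyte gate of nucleus-like barcodes Sox2 overlapped, at 54.0 to 130 CPM and 53.7 to 67.1 CPM (-0.41, SE 0.27, adjusted p = 0.822). In all kept, nucleus-like and mitochondria-rich barcodes no member was without overlap, where 2.48%, 1.77% and 6.93% of genes were.

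Among the others, Sox9 in the NSC/astrocyte gate was 71.4 to 133 CPM in Tsc2 wt/wt and 67.6 to 87.7 CPM in Tsc2 mut/mut (-0.52, SE 0.23, unadjusted p = 0.0334, adjusted p = 0.643). Nfia in the mitochondria-rich NSC/astrocyte gate had a log2 fold change of 0.33 (SE 0.15, unadjusted p = 0.0365, adjusted p = 0.354) and in the nucleus-like gate of -0.13 (SE 0.12, adjusted p = 0.907). Nfib (0.04, SE 0.12) and Pax6 (0.03, SE 0.23) in the nucleus-like gate had values near 0.

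In nucleus-like barcodes as a whole the genotype values of Sox9 (0.68, SE 0.57), Hopx (0.66, SE 0.58), Id2 (0.23, SE 0.53) and Id4 (0.17, SE 0.30) did not hold their sign. They turned to -0.19, -0.30, -0.62 and -0.12 when Tsc2 mut/mut 4 was left out. This library, with mostly choroid plexus-gated barcodes, had the highest nucleus-like levels of Sox9 (198 CPM), Hopx (171 CPM) and Id2 (145 CPM) and the lowest of Nfia (261 CPM), Nfib (129.6 CPM) and Pax6 (4.51 CPM). Sox9, Hopx and Id2 were also high, and Nfia, Nfib and Pax6 low, in the choroid plexus gate, whereas Id4 was called lower there. This mouse supplied 167 of 451 barcodes of that gate. The part of choroid plexus barcodes in the genotype values was not tested. Without this mouse, Nfia was -0.28 and Nfib -0.16, against -0.48 and -0.37 with it. Fabp7 was 0.87 (SE 0.44, adjusted p = 0.923) and 0.64 without that mouse.

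**Figure D4:**
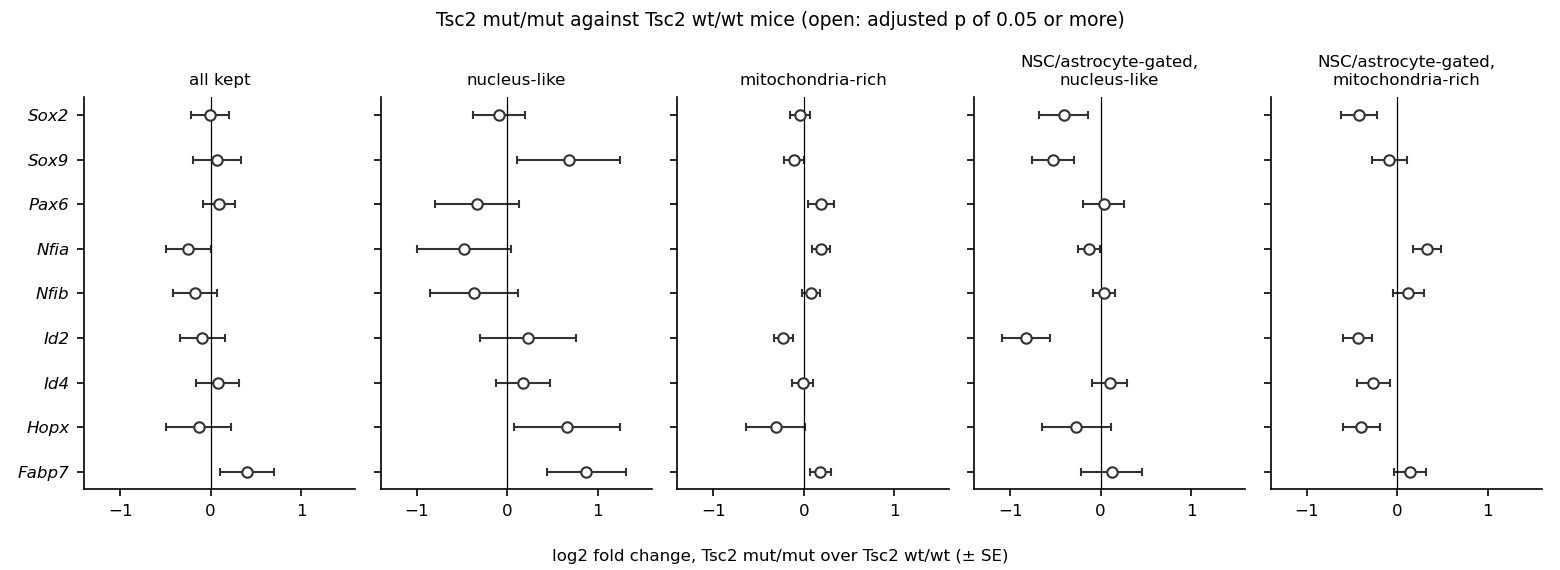
Log2 fold change between Tsc2 mut/mut and Tsc2 wt/wt mice for each member in each population of barcodes, with standard errors derived from the test statistic. All points are open because no member passed the adjusted threshold, and Id2 lies below 0 in both NSC/astrocyte gates.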

How the data were processed

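Nuclei positive for tdTomato had been sorted from 8 mice and sequenced with the 10x 3′ kit. Per the labels, the authors aligned reads to GRCm38 with Cell Ranger 7.0.1 and forced 60000 barcodes per library, and the deposited values are raw UMI counts per gene and barcode (0 columns belonged to other samples). The study used Seurat 4, and its filtered objects were not used here. UMIs were summed per mouse, with the 13 mitochondrial genes left out, and tested with edgeR 4.0.16 (robust quasi-likelihood test, TMM scaling, filterByExpr) in R 4.3.3. P-values were adjusted by the Benjamini-Hochberg method over all genes, and genes were called at an adjusted p under 0.05. Within-mouse comparisons had the mouse as a block, and genotype comparisons had none. Mice are the replicates, and fits needed at least 10 barcodes per mouse. The test estimates the spread of a gene partly from all genes together. Its p-values and SEs therefore do not measure the spread of that gene between mice alone, above all the very small p-values between gates. The SE was the size of the log2 fold change before shrinkage, divided by the square root of the F statistic.

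A marker was raised in a barcode if the Poisson upper-tail p was under 0.05 given its share in low-count barcodes of the same library. This gate replaced a planned one on summed marker lists, which gated 0 to 16 NSC/astrocyte nucleus-like barcodes per mouse, and this change was made after seeing the data. Gates other than NSC/astrocyte, and all comparisons of gated mitochondria-rich barcodes, were added after seeing the data, and no class of nucleus-like barcodes had 10 in all 8 mice. Marker genes were left out of the tests between gates. No doublet caller was run, and an alternative without the 5% of barcodes with the most UMIs stood in for it. Genes other than members were named as the up to 4 of each list with the lowest p among those called, and as the 3 with the highest r per member. The members and lists were chosen with earlier results of these data known. Alternatives used DESeq2 1.42.0, other scalings, filters, barcode thresholds and gates, and each mouse left out in turn. Scripts were tested on simulated data. Promoters came from a RefSeq table.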

Additional observations from a re-analysis of the deposited data

Results flagged for a closer look

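In groups of 4 mice, the highest or lowest mouse was compared with the other 3 by Dixon's ratio. Of 99 groups of a member, population and genotype, 6 passed its 95% limit, which is about the 1 in 20 that chance gives. Tsc2 wt/wt 3, the library with the fewest UMIs, was the extreme mouse in 5 of the 6. Its Sox2 level was 106 CPM in nucleus-like barcodes against 49.2 to 57.7 CPM in the other Tsc2 wt/wt mice, and 130 CPM in the NSC/astrocyte gate against 54.0 to 65.4 CPM. Its Hopx level was 472 CPM in all kept barcodes against 193 to 229.9 CPM, and 636 CPM in mitochondria-rich barcodes against 294 to 322 CPM. Its Id2 level was 206 CPM in all kept barcodes against 169 to 174 CPM. The sixth was Sox2 in low-count barcodes of Tsc2 mut/mut 2, with 83.7 CPM against 89.97 to 91.2 CPM in the other Tsc2 mut/mut mice. For no member did all mice of one genotype move one way and all mice of the other the opposite way between barcode populations, and genotype effects were not tested for a difference between populations.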

How the results depend on the processing

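No log2 fold change of a called member turned under any of the alternatives run, and the values that turned belonged to members that were not called. In the comparison of nucleus-like with mitochondria-rich barcodes the 9 members were called in each fit that left out a mouse. Depth limited the nucleus-like gates: several levels rest on under 20 UMIs, none of these gates had 10 barcodes in all 8 mice, and the genotype comparison in the nucleus-like NSC/astrocyte gate had 4 against 3 mice. No pairing of mice by replicate number was assumed. Correlations of same-numbered mice ran from -0.75 to 0.56 in nucleus-like and from -0.25 to -0.08 in mitochondria-rich barcodes. Only number 4 in nucleus-like barcodes correlated best with its own number, but so few correlations cannot exclude a pairing. With the replicate block the count of genes called in all kept barcodes went from 2 to 0, and the genotype values that turned were Sox2 in all kept barcodes (0.0031), Id2 in nucleus-like barcodes (-0.069) and Pax6 (-0.074) and Id4 (-0.045) in the NSC/astrocyte gate. The cause of these changes was not tested.

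Without the 5% of barcodes with the most UMIs, fewer UMIs entered and the genes called fell to 1630 in the NSC/astrocyte gate (5328 in the report's setting), 1280 in the ependymal gate (3180), 1834 in the oligodendrocyte gate (3490), 2247 in the microglia gate (4011) and 1979 within the NSC/astrocyte gate (3728), and to 1 for genotype in all kept barcodes. Fewer members passed the filter on low counts. Those tested were 5 in the NSC/astrocyte gate, 3 in the ependymal gate, 4 in the oligodendrocyte gate and 4 in the microglia gate. The other members were not tested, so that this alternative cannot show whether their calls hold. Sox9 turned to 0.70 in the NSC/astrocyte gate. Genotype values turned for Sox9 (-0.14) and Nfia (0.0098) in all kept barcodes, for Sox9 (-0.40), Pax6 (0.055), Hopx (-0.54), Id2 (-0.91) and Id4 (-0.022) in nucleus-like barcodes and for Id4 (0.0069) in mitochondria-rich barcodes.

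With no filter on low counts more genes were tested, and the genes called were 8289 in the NSC/astrocyte gate, 5734 in the ependymal, 6695 in the oligodendrocyte, 7159 in the microglia and 10946 in the choroid plexus gate (6450 with the filter), 8402 within the NSC/astrocyte gate, and for genotype 168 in mitochondria-rich (32), 58 in NSC/astrocyte-gated (0) and 11 in NSC/astrocyte-gated mitochondria-rich barcodes (25). Hopx (-0.13) in the mitochondria-rich NSC/astrocyte gate and Nfib (-0.12) in the ependymal gate turned. DESeq2 called 7 genes for genotype in all kept, 1 in nucleus-like and 6 in NSC/astrocyte-gated barcodes, and gave -0.12 for Fabp7 in the oligodendrocyte gate, where its size factors gave -0.090.

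At 500 genes per barcode, genotype calls were 0 in all kept, 15 in mitochondria-rich and 6 in NSC/astrocyte-gated mitochondria-rich barcodes, and the mitochondria-rich NSC/astrocyte gate had 796 calls (2056). Values that turned were, for genotype, Pax6 (-0.26), Fabp7 (-0.15) and Id4 (-0.18) in all kept barcodes, Id4 (0.025) in mitochondria-rich barcodes, and Sox9 (0.010) and Fabp7 (-0.065) in the gated mitochondria-rich barcodes, and between gates Fabp7 in the mitochondria-rich NSC/astrocyte gate (0.049) and the ependymal gate (0.0043). At 200 genes, genotype calls were 53 in mitochondria-rich and 39 in NSC/astrocyte-gated mitochondria-rich barcodes. A mitochondrial share under 30% gave 0.049 for Sox9 in the NSC/astrocyte gate and, for genotype, -0.003991 for Id4 in nucleus-like barcodes and -0.038 for Nfib and -0.048 for Id4 in the NSC/astrocyte gate, where a share under 10% gave 0.071 for Hopx.

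Library size as the only scaling turned the genotype values of Sox9 (-0.064) and Id4 (-0.036) in all kept and of Id2 (-0.17) and Id4 (-0.065) in nucleus-like barcodes, and Fabp7 in the mitochondria-rich NSC/astrocyte gate (0.073), the ependymal gate (0.0088) and the microglia gate (0.21). In the oligodendrocyte gate the share of calls that were higher was 43.8%, and 32.4% with DESeq2 size factors. The stricter gate called 2926 genes in the NSC/astrocyte and 2313 in the oligodendrocyte gate, and gave genotype values of -0.15 for Pax6, 0.16 for Hopx and -0.27 for Id4. A gate with no minimum ratio gave 0.016 for Sox9 in the NSC/astrocyte gate. The gate on summed lists, planned at first and kept as an alternative, called 5 members in the choroid plexus gate (9). It gave -0.31 for Pax6 and -0.12 for Hopx in the mitochondria-rich NSC/astrocyte gate and -0.11 for Nfia between genotypes there.

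With single mice left out, genotype calls ran from 0 to 3 in all kept, 19 to 117 in mitochondria-rich, 0 to 18 in NSC/astrocyte-gated and 7 to 50 in NSC/astrocyte-gated mitochondria-rich barcodes. Genotype log2 fold changes ran, in all kept barcodes, from -0.15 to 0.12 for Sox2, -0.19 to 0.21 for Sox9, -0.38 to 0.24 for Hopx, -0.32 to 0.065 for Id2 and -0.088 to 0.22 for Id4, and in nucleus-like barcodes from -0.24 to 0.15 for Sox2, -0.19 to 0.94 for Sox9, -0.30 to 0.91 for Hopx, -0.62 to 0.47 for Id2 and -0.12 to 0.30 for Id4. They ran in mitochondria-rich barcodes from -0.12 to 0.00096 for Sox2, -0.41 to 0.026 for Hopx and -0.083 to 0.084 for Id4, in the NSC/astrocyte gate from -0.23 to 0.17 for Pax6, -0.053 to 0.13 for Nfib, -0.47 to 0.17 for Hopx and -0.11 to 0.56 for Fabp7, and in its mitochondria-rich counterpart from -0.23 to 0.065 for Sox9. Between gates Fabp7 ran from -0.060 to 0.022 in the mitochondria-rich NSC/astrocyte, 0.024 to 0.077 in the ependymal and -0.095 to 0.25 in the oligodendrocyte gate.

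Not thinned, the shares of NSC/astrocyte-gated barcodes with a UMI were 19.2% for Sox2, 25.6% for Sox9, 24.6% for Pax6, 88.3% for Nfib, 15.6% for Hopx, 11.9% for Fabp7, 29.9% for Id2 and 29.3% for Id4. Thinned to 500 UMIs, they were 4.44% for Sox9, 4.45% for Pax6, 67.8% for Nfia, 44.3% for Nfib and 6.56% for Id4. Over all alternatives, 63 counts and shares moved (a count by over 1.5 times, a share by over 1 SD) and 439 did not, and of the log2 fold changes of members 80 turned, 60 lost a call, 17 gained one and 1929 kept direction and call.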
